A study of Arabidopsis thaliana with 59 samples.

Results

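The aquaporin superfamily of Arabidopsis was followed in rosette leaves of 10 accessions kept under drying or well-watered soil. Its members were taken from a list of 34 loci, namely 13 plasma membrane intrinsic proteins (PIPs, in the groups PIP1 and PIP2), 10 tonoplast intrinsic proteins (TIPs), 8 nodulin 26-like intrinsic proteins (NIPs) and 3 small basic intrinsic proteins (SIPs). The expression table held 27 of the 34, out of 20728 loci in all: 5 of 5 PIP1 genes, 4 of 8 PIP2 genes, 10 of 10 TIPs, 5 of 8 NIPs and 3 of 3 SIPs. The remaining 7 loci (PIP2;2, PIP2;3, PIP2;7, PIP2;8, NIP2;1, NIP4;1 and NIP4;2) were not analysed here. All 34 listed loci were found in the RefSeq gene table of the assembly TAIR10.1. There some have other symbols, such as PIP1A for PIP1;1, PIP2A for PIP2;1, GAMMA-TIP for TIP1;1, DELTA-TIP for TIP2;1, NLM1 for NIP1;1 and SIP1A for SIP1;1. Below, family names are written with a hyphen, as in the UniProt protein names (PIP1-1 for PIP1;1).

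Aquaporins are membrane channels that let water, and in some members small uncharged solutes, cross membranes along a gradient. PIPs sit mainly in the plasma membrane and set much of the water permeability of leaf and root cells, TIPs serve the membrane of the vacuole, several NIPs carry boric acid or metalloids, and SIPs lie in the endoplasmic reticulum. In leaves, PIPs and TIPs are known to change with water supply, and some of them follow the time of day.

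Dry pots were brought down in daily steps until about 50% of the water remained on the fifth day, while wet control pots stayed near 90%. Each pot held a single plant in a porous ceramic medium, and the sampled tissue was labelled rosette leaf; the age of the plants is not given in the sources used here. The accessions were Bur-0, CIBC-17, Col, HR-5, KNOX-18, Ler, NFA-10, SQ-8, Ts-1 and Ws-2, which the labels call spring annuals, and no transgene or added agent is named in the labels. Each accession had 3 dry and 3 wet arrays, labelled as biological replicates 1 to 3, except KNOX-18, which had dry replicates 1 and 3, so 29 dry and 30 wet arrays were compared. Values are on the log2 scale, where 1 unit is a doubling. Errors of differences are standard errors (SE) of a limma fit in which all 20 groups shared 1 estimate of the spread, errors of group means are SDs over arrays, and p-values were adjusted over all 20728 loci with a threshold of 0.05.

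All 59 arrays correlated best with the other arrays of their labelled accession at the 300 other loci that differed most among accessions (own correlation at least 0.763, next best at most 0.218). The label of Col wet 3 carries the seed stock number given elsewhere to Ws-2, yet that array matched Col, and without it no count of members below changed. Ler wet 3 stood apart from its group mates, with a root mean square difference of 0.73 log2 units against 0.564 for the next array. Without Ler wet 3 the drying contrast called the same number of members (2 higher and 10 lower); other counts that moved are given beside their results. Array medians lay between 5.50 and 5.62. The 5 leaf mesophyll markers first listed were not analysed here. Another 5 leaf genes, chosen after the table was seen (RCA, CA1, GAPA, LHCB5 and PSBO1), had means of 11.13 to 13.42. The 12 measured root, seed and pollen markers had means between 3.57 and 5.09, low on a scale that ran to 14.06, and 0 of 12 were called for drying by limma, 1 having an unadjusted p under 0.05.

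On average over accessions, drying was accompanied by lower transcript levels of most aquaporins that changed. Of the 27 measured members 12 passed the threshold (44.4%), against 29.3% of all loci, and 10 of the 12 were lower in dry leaves (37% of members, against 13.8% of all loci) while 2 were higher (7.41%, against 15.5% of all loci). The median dry minus wet difference was -0.12 over the measured members and -0.00326 over all loci. TIP1-1 fell most among the measured members, SIPs fell in 3 of 3 cases, NIPs in 3 of 5, and PIPs were split, with 2 higher, 2 lower and 5 of 9 not called. Among TIPs 2 of 10 fell and 8 were not called. Because these are whole leaves, fewer cells of a type and less RNA per cell cannot be told apart.

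**Figure D1:**
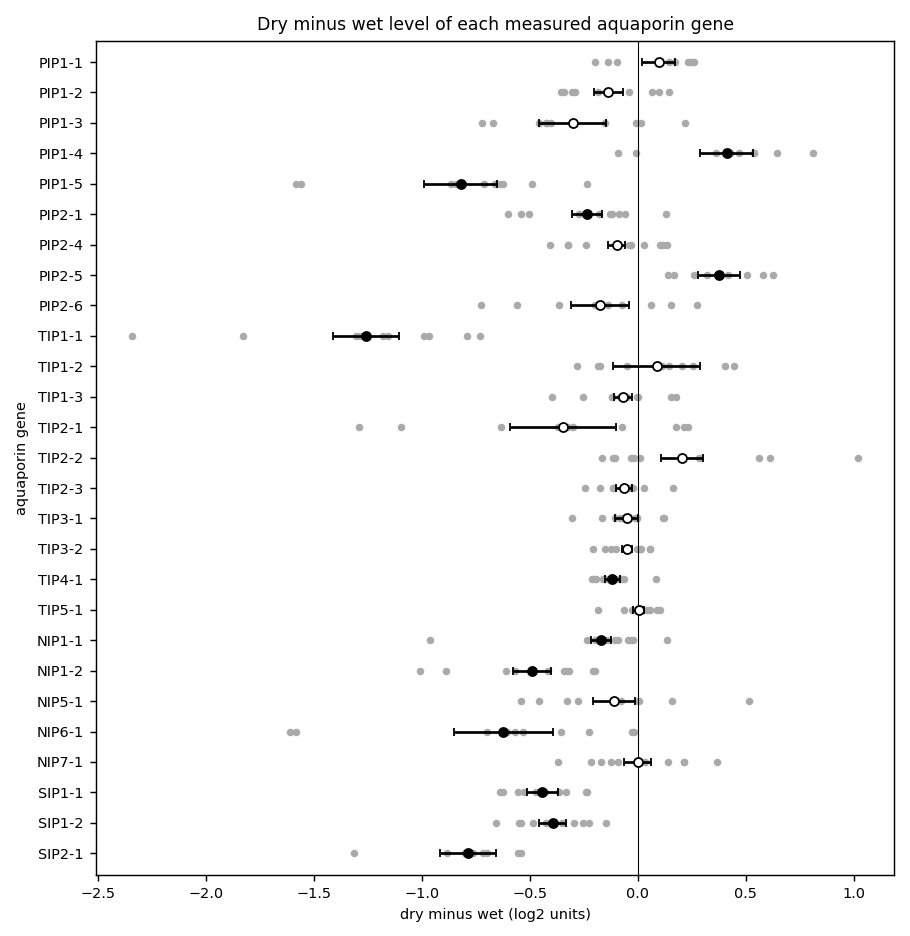
Dry minus wet difference (x axis, log2 units) of each measured aquaporin gene (y axis, by subfamily). Grey points are the 10 accessions, large points the mean over accessions with its SE, filled where the adjusted p was under 0.05. TIP1-1 lies farthest to the left at -1.26, all 3 SIPs lie left of 0 in every accession, and PIP1-4 and PIP2-5 are the filled points to the right of 0.

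TIP1-1 (AT2G36830), a major water channel of the vacuolar membrane in leaves, had dry values of 7.38 to 10.93 with a median of 9.21, against wet values of 9.33 to 11.22 with a median of 10.41. In HR-5 the arrays read 8.99, 7.38 and 8.44 in dry leaves and 10.97, 10.28 and 10.58 in wet leaves. Ts-1 overlapped, with 10.93, 8.28 and 9.45 in dry leaves and 9.73, 10.91 and 10.39 in wet leaves, since dry replicate 1 read higher than every wet array of that accession. Every dry array lay below every wet array in 8 accessions, all but Ts-1 and NFA-10, a pattern found at 0.314% of all loci (at least 8 accessions). The mean difference was -1.26 ± 0.15, which is 2.39-fold lower in dry leaves (limma adjusted p = 3.36e-08), and its sign was the same in 10 of 10 accessions. Single accessions ranged from -2.34 in HR-5 to -0.73 in NFA-10. TIP1-1 was the 1 member whose drying call was kept in each of the 80 alternative settings, including every replicate number taken alone.

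TIP4-1 (AT2G25810), known mainly from roots, was the other TIP that fell, by a small amount low on the scale. Its dry values ran from 4.31 to 4.77 with a median of 4.54, and its wet values from 4.30 to 5.03 with a median of 4.67, so the groups overlapped broadly. The difference was -0.12 ± 0.03 (limma adjusted p = 0.00635) and was negative in 9 of 10 accessions. No single replicate number gave a call (adjusted p from 0.131 to 0.273). The remaining TIPs did not pass. TIP1-2, a close relative of TIP1-1 in the vacuolar membrane, differed by 0.09 ± 0.20 (adjusted p = 0.794), TIP2-1, which encodes the delta-TIP known to pass ammonia as well as water, by -0.35 ± 0.24 (adjusted p = 0.31), and TIP2-2 by 0.20 ± 0.10 (adjusted p = 0.116). The widest single value for TIP2-2 was in NFA-10, with 7.40, 7.72 and 7.60 in dry and 6.55, 6.51 and 6.60 in wet leaves, a difference of 1.02 ± 0.31 that did not pass (adjusted p = 0.128). TIP1-3 and TIP5-1, known from pollen, the seed-type genes TIP3-1 and TIP3-2, and TIP2-3 differed by -0.07 to 0.00. TIP3-2 was in the lowest 20% of the table, under a mean of 4.065, where background cannot be told from expression.

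Among PIPs the largest fall was that of PIP1-5 (AT4G23400), a plasma membrane channel of the PIP1 group. Dry values ran from 8.05 to 10.98 with a median of 9.81 and wet values from 8.93 to 11.36 with a median of 10.51. The widest gaps were in HR-5, at 8.93, 8.64 and 9.37 in dry against 9.92, 10.83 and 10.94 in wet leaves, and in Ler, at 8.05, 8.45 and 10.25 in dry against 10.16, 10.59 and 10.68 in wet leaves. HR-5 was the 1 accession in which the arrays of the groups did not overlap for this gene. PIP1-5 fell by 0.82 ± 0.17 log2 units in dry leaves, a 1.77-fold difference (limma adjusted p = 0.00019), and its mean was lower in 10 of 10 accessions. With replicate number 1 alone the call was lost (adjusted p = 0.218).

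PIP2-1 (AT3G53420), a water channel of guard cells, vasculature and roots that the kinase OST1 is known to phosphorylate, fell slightly. Its arrays read 11.21 to 12.55 with a median of 12.03 in dry leaves, against 11.71 to 12.78 with a median of 12.26 in wet leaves. The difference was -0.24 ± 0.07 (limma adjusted p = 0.00753), lower in 9 of 10 accessions. In an exact sign-flip test over the 10 accessions, which called 10 of the 12 members (21.4% of all loci passed), it gave an adjusted p of 0.0518, and the sign was reversed with replicate number 1 alone (0.15).

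The 2 members that rose were PIP2-5 and PIP1-4, both known from earlier work as PIPs that can rise in leaves under drought. PIP2-5 (AT3G54820) read 4.62 to 6.57 with a median of 5.26 in dry leaves and 4.51 to 5.82 with a median of 4.92 in wet leaves. Its wet mean of 4.98 was low on the scale, within the 3.57 to 5.09 of the root, seed and pollen markers. PIP2-5 had a dry mean of 5.36. The dry arrays of PIP2-5 all lay above the wet arrays in 5 accessions (Ts-1, CIBC-17, KNOX-18, NFA-10 and Col), a pattern that 3.1% of all loci met in at least 5 accessions. In Ts-1, for example, dry leaves had 5.49, 5.03 and 5.25 and wet leaves 4.82, 4.51 and 4.71. The difference of 0.38 ± 0.10 (1.3-fold higher in dry leaves; limma adjusted p = 0.00254) was positive in 10 of 10 accessions, a pattern shared by 5.93% of all loci. PIP1-4 (AT4G00430) read 9.23 to 11.19 with a median of 9.87 in dry leaves and 8.15 to 10.72 with a median of 9.51 in wet leaves, with overlap in all 10 accessions. It rose by 0.41 ± 0.12, a 1.33-fold difference (limma adjusted p = 0.00964), and was higher in 8 of 10 accessions. Neither rise passed with replicate number 3 alone (adjusted p = 0.269 for PIP2-5 and 0.22 for PIP1-4), and PIP2-5 also missed the threshold with number 2 alone (adjusted p = 0.0628).

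The other 5 PIPs did not pass in the fit without replicate number. PIP1-1 differed by 0.10 ± 0.08 (limma adjusted p = 0.387), PIP1-2 by -0.14 ± 0.07 (adjusted p = 0.129) and PIP1-3 by -0.30 ± 0.16 (adjusted p = 0.147). With replicate number as a block PIP1-3 passed (-0.30, adjusted p = 0.0283). PIP2-6 differed by -0.18 ± 0.14 (adjusted p = 0.359) and PIP2-4, known mainly from roots, by -0.10 ± 0.04 (adjusted p = 0.0606), or 0.0498 with the block.

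All 3 SIPs, whose channels sit in the endoplasmic reticulum and for which few transported substrates are known, were lower in dry leaves of every accession. SIP2-1 (AT3G56950) read 7.21 to 8.83 with a median of 7.78 in dry leaves, against 7.05 to 9.47 with a median of 8.74 in wet leaves. The lowest wet value was that of Ler wet 3, whose group read 9.47, 8.77 and 7.05, while Ler dry read 7.78, 7.78 and 7.64. SIP2-1 fell by 0.79 ± 0.13 log2 units, a 1.72-fold difference (limma adjusted p = 8.44e-06), and differed by -0.85 without Ler wet 3 (adjusted p = 1.35e-07). SIP1-1 (AT3G04090) had dry values of 8.74 to 9.88 with a median of 9.24, against wet values of 9.05 to 10.31 with a median of 9.77. It differed by -0.44 ± 0.07 (limma adjusted p = 5.07e-06), and dry arrays all lay below wet arrays in 4 accessions (at least 4 in 4.66% of all loci).

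SIP1-2 (AT5G18290) had a smaller difference with less scatter among its arrays. Values ran from 5.94 to 6.57 with a median of 6.23 in dry leaves and from 6.13 to 7.53 with a median of 6.59 in wet leaves. Col read 6.15, 6.26 and 6.14 in dry leaves and 6.66, 6.67 and 6.67 in wet leaves. The difference of -0.39 ± 0.06 (limma adjusted p = 4.39e-06) came with dry arrays all below wet arrays in 8 accessions, as many as for TIP1-1. With replicate number 3 alone none of the 3 SIP falls passed, although their signs were kept (SIP1-1 -0.42, SIP1-2 -0.33 and SIP2-1 -0.66, adjusted p from 0.0791 to 0.13). Of all loci 3.82% were called in number 3 alone. With the number as a block SIP1-1, SIP1-2 and SIP2-1 passed (limma adjusted p = 3.02e-06, 3.84e-06 and 1.75e-09).

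Of the NIPs, NIP1-2, NIP6-1 and NIP1-1 fell. NIP1-2 (AT4G18910), known for carrying an aluminium malate complex in roots, read 6.18 to 7.68 with a median of 6.88 in dry leaves and 6.51 to 8.03 with a median of 7.42 in wet leaves. It differed by -0.49 ± 0.09 (limma adjusted p = 4.09e-05) and was lower in 10 of 10 accessions, with no overlap of arrays in 3 of them (at least 3 in 9.68% of all loci). With replicate number 1 or 3 alone it kept its sign and missed the threshold (adjusted p = 0.0782 and 0.0654). NIP6-1 (AT1G80760), a boric acid channel of young shoot tissues, read 5.59 to 9.11 with a median of 7.34 in dry leaves and 5.75 to 9.67 with a median of 7.95 in wet leaves, a wide and overlapping spread. Its mean was lower in 10 of 10 accessions, with a difference of -0.62 ± 0.23 on average (limma adjusted p = 0.0351), in single accessions from -1.61 to -0.02.

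With replicate number as a block NIP6-1 differed by -0.63 ± 0.14 (limma adjusted p = 0.000423). In the fit without the number the NIP6-1 call lay close to the threshold. It was lost without any 1 of 15 arrays, with adjusted p-values of 0.0504 to 0.0716: wet 1 of Bur-0, CIBC-17, Col, Ler, NFA-10 or SQ-8, dry 2 of HR-5, NFA-10 or SQ-8, wet 2 of Ler, and dry 3 of Bur-0, HR-5, KNOX-18, Ts-1 or Ws-2. With replicate number 1 or 3 alone it was lost (adjusted p = 0.0948 and 0.469). It was also lost without the accession Bur-0, Ts-1, HR-5 or KNOX-18 (0.0514 to 0.118). Ler wet 3 read 5.75 against 9.67 and 8.72 for its group mates, and without it the difference was -0.74 (adjusted p = 0.00405).

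NIP1-1 (AT4G19030), a channel through which arsenite can enter, was in the lowest 20% of the table. Its values ran from 3.51 to 4.03 with a median of 3.75 in dry leaves and from 3.62 to 5.38 with a median of 3.85 in wet leaves. The highest ones came from KNOX-18, where wet leaves stood apart: dry leaves read 3.68 and 3.79 and wet leaves 5.38, 4.36 and 4.37. The mean difference was -0.17 ± 0.05 (limma adjusted p = 0.00433) and was negative in 9 of 10 accessions. Without KNOX-18 it was -0.08 and missed the threshold (adjusted p = 0.0702), as it did in the exact sign-flip test over accessions (adjusted p = 0.0922) and with each replicate number alone (0.123 to 0.857). NIP5-1, the boric acid uptake channel known best from roots, differed by -0.11 ± 0.10 (adjusted p = 0.434) and NIP7-1, known from anthers, by -0.001 ± 0.06 (adjusted p = 0.993).

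**Figure D2:**
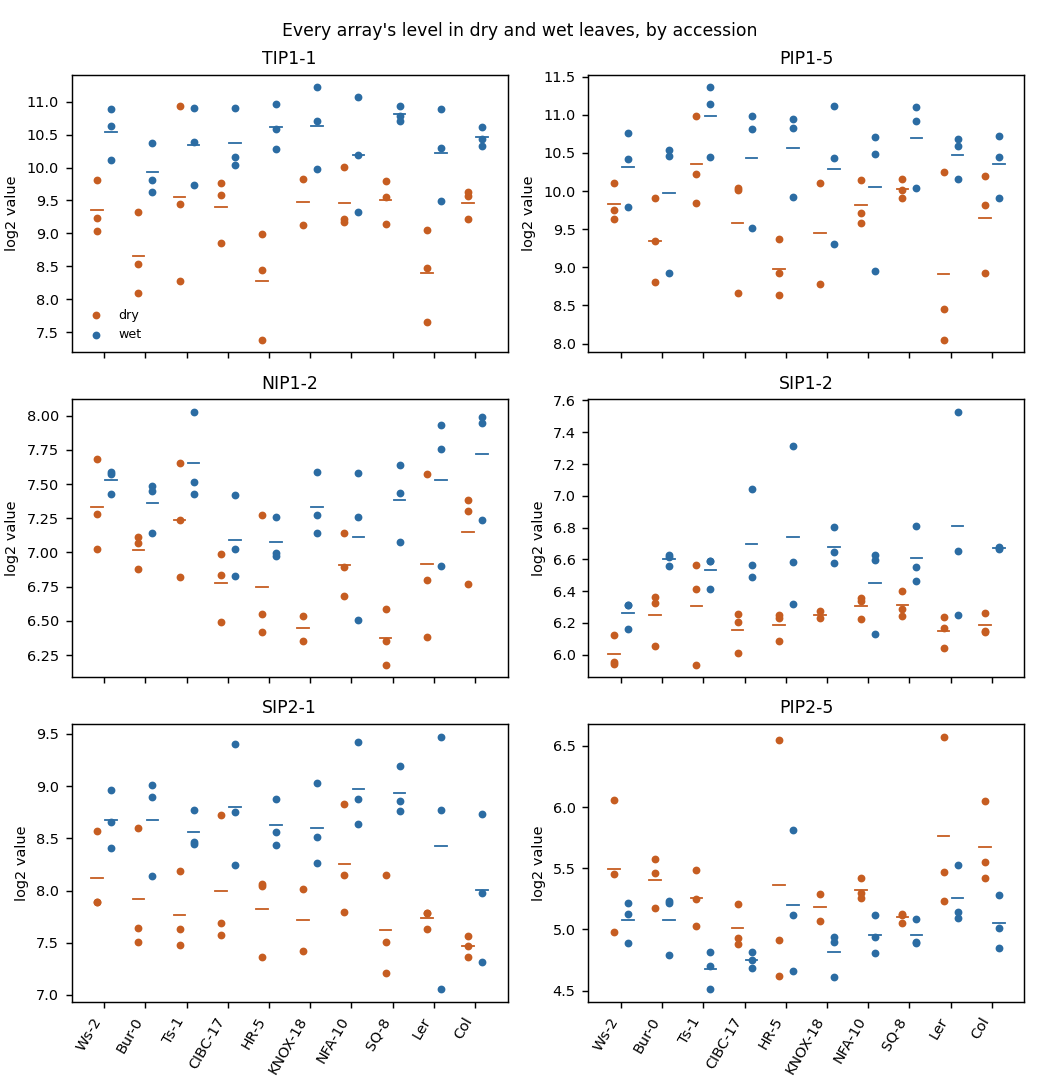
Every array of 6 aquaporin genes (y axis, log2 value) by accession (x axis); orange points are dry arrays, blue points wet arrays and short lines group means. TIP1-1, PIP1-5, NIP1-2, SIP1-2 and SIP2-1 have lower dry means in all 10 accessions, and PIP2-5 has higher dry means in all 10.

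The direction of the drying difference was shared by all 10 accessions for some members and mixed for the others. Of the 27 measured members 7 were lower in all 10 accessions (25.9%, against 5.08% of all loci): TIP1-1, PIP1-5, NIP1-2, NIP6-1 and the 3 SIPs. The number of members with a negative difference, passing or not, ran from 11 of 27 in NFA-10 to 26 of 27 in HR-5, where 40.7% and 96.3% of members were negative beside 55% and 51.5% of all loci. The median over members was 0.03 in NFA-10, -0.21 in HR-5 and -0.29 in Ler. In NFA-10 just 1 of 9 PIPs was negative, while 8 of 9 were in HR-5. The SIPs were negative in 3 of 3 cases in all 10 accessions. Ler holds the array that stood apart, and NFA-10 wet 1 had the lowest correlation with its own accession among the arrays (0.763). The part of either array in these counts by accession was not tested.

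Within single accessions 4 of 270 member tests passed (5 without Ler wet 3), 1.48% against 1.12% of all tests over all loci. By accession the share of loci called was 0.878% in Ws-2, 2.72% in Bur-0, 0.367% in Ts-1, 0.0627% in CIBC-17, 0.154% in NFA-10, 0.704% in Ler and 0.608% in Col, where no member passed. The 4 calls were TIP1-1 in HR-5, NIP1-2 and SIP2-1 in SQ-8, and NIP1-1 in KNOX-18. TIP1-1 in HR-5 differed by -2.34 ± 0.47, 5.06-fold lower in dry leaves (limma adjusted p = 0.0108; 0.651% of loci were called in HR-5). That call was lost without HR-5 wet 1 (-2.16, adjusted p = 0.0804) or HR-5 dry 2 (-1.90, adjusted p = 0.091). In SQ-8, where 4.95% of loci were called, NIP1-2 read 6.59, 6.35 and 6.18 in dry and 7.64, 7.08 and 7.43 in wet leaves, a difference of -1.01 ± 0.28 (adjusted p = 0.0254).

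SIP2-1 in SQ-8 read 8.15, 7.51 and 7.21 in dry and 9.20, 8.86 and 8.76 in wet leaves, a difference of -1.31 ± 0.40 (limma adjusted p = 0.0467). Both SQ-8 calls were lost without SQ-8 wet 1, wet 3, dry 2 or dry 3, which left 2 calls in all: adjusted p-values then lay between 0.0744 and 0.126 for NIP1-2 and between 0.111 and 0.214 for SIP2-1. The SIP2-1 call was also lost without SQ-8 wet 2 (0.0713), with array medians centred (0.0517), and without any 1 of 15 arrays of other accessions (0.0503 to 0.0516), namely dry 1 of Col or Ler, dry 2 of Col, Ler, NFA-10, Ts-1 or Ws-2, wet 2 of CIBC-17, Col, HR-5, NFA-10, Ts-1 or Ws-2, dry 3 of Ler, and wet 3 of Ts-1. NIP1-1 in KNOX-18 differed by -0.96 ± 0.16 with 2 dry arrays (adjusted p = 0.00229; 0.13% of loci were called in KNOX-18), and by -0.91 without KNOX-18 dry 1 (adjusted p = 0.0839), where the lone dry array was taken to vary like the other groups.

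Whether the drying difference itself varied among accessions was tested as an interaction. By limma's F test 0 of 27 members passed, against 0.27% of all loci, 2 of 27 having an unadjusted p under 0.05. The lowest adjusted p was 0.247, for NIP1-1. With array quality weights 2 members, PIP2-4 and TIP1-3, passed this test. The estimation of those weights stopped before it converged, and Ler wet 2 had a weight of 31.7 against 4.92 for the next array. The share of all loci passing with the weights was not counted. The calls within single accessions are therefore not shown to differ from the other accessions.

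Proteins that regulate aquaporins or work beside them were looked at in a list of 26 genes, of which all but GRF4 were measured. Of the 25, 3 rose (12%, against 15.5% of all loci) and 6 fell (24%, against 13.8%), and the median difference was -0.002. Among the kinases and receptor-like kinases, OST1, the guard cell kinase of abscisic acid signalling, rose by 0.29 ± 0.10 (limma adjusted p = 0.0202), and its partner in PIP2-1 signalling BAK1 fell by 0.26 ± 0.06 (adjusted p = 0.00117). The BAK1 difference depended on the replicate number (limma F test of the interaction, adjusted p = 0.00639), at -0.57, -0.06 and -0.15 in numbers 1, 2 and 3. AHA2, RMA3 and SIRK1, not called for drying, passed that test too (adjusted p = 0.00319, 0.0304 and 0.0456). Of all loci 6.32% passed it. TSPO, a membrane protein that can take PIP2-7 to degradation, rose by 0.29 ± 0.07 (adjusted p = 0.00065).

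SYP121 and SYP61, syntaxins known to bring PIP2 proteins to the plasma membrane, fell by 0.28 ± 0.09 (limma adjusted p = 0.0164) and 0.28 ± 0.06 (adjusted p = 0.000509). VAMP721, their vesicle partner, fell by 0.30 ± 0.08 (adjusted p = 0.00244). On the vacuole, VHA-A2, a subunit of the tonoplast proton pump, fell by 0.27 ± 0.04 (adjusted p = 4.33e-06), and the cation channel gene TPC1 rose by 0.18 ± 0.05 (adjusted p = 0.0066). GRF10, a 14-3-3 gene, fell by 0.18 ± 0.07 (adjusted p = 0.0489), a call lost in 55 of 80 alternative settings, among them 43 of the 59 that left out 1 array (0.0511 to 0.0815). SYP121 missed the threshold in the sign-flip test over accessions (adjusted p = 0.262) and without Ws-2 (0.101), Bur-0 (0.0614) or KNOX-18 (0.057). OST1 missed it without Ws-2 (0.0801) and TPC1 in the sign-flip test (0.0829).

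Cell type markers were set beside these differences, in a table where 29.3% of all loci were called for drying and 15.5% rose. The guard cell gene KAT1 rose by 0.39 ± 0.09 (limma adjusted p = 0.000516) as the 1 call among 4 measured guard cell markers, whose mean ran from 4.26 to 4.96 in dry arrays and from 4.18 to 4.68 in wet arrays. All 4 were low, with gene means from 4.26 for MYB60 to 4.66 for KAT1. These lay within the 3.57 to 5.09 of the root, seed and pollen markers. Of 4 phloem and bundle sheath markers APL rose by 0.50 ± 0.09 (adjusted p = 3.96e-05) and SULTR2;2 fell by 0.42 ± 0.09 (adjusted p = 0.000349), the list mean running from 6.91 to 8.28 in dry and from 6.99 to 8.23 in wet arrays. Of the 5 added leaf markers 3 rose, CA1 by 0.87 ± 0.24, GAPA by 0.41 ± 0.09 and PSBO1 by 0.27 ± 0.06. The part of cell makeup in the aquaporin differences was not tested.

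Averaged over watering, 6 of 27 members differed among accessions (22.2%, against 41.3% of all loci): TIP2-2, NIP5-1, NIP1-1, SIP1-1, NIP1-2 and TIP5-1. No PIP was among them. With replicate number as a block 13 members passed, among them PIP1-3 (adjusted p = 0.00187), PIP1-4 (3.97e-05), PIP1-5 (0.0244) and PIP2-6 (0.0267), and also TIP3-2 (0.0389), NIP6-1 (0.017) and SIP2-1 (0.0152). The share of all loci passing with the block was not counted. Whether this rise goes beyond that of other loci is therefore not known. Probes can bind less well where an accession's sequence differs, and this was not tested. TIP2-2 (AT4G17340), a vacuolar water channel known mainly from roots, had by far the widest range of accession means, 2.30 log2 units (limma F test, adjusted p = 3.62e-11). Col was highest, reading 9.08, 9.16 and 8.85 in dry and 9.13, 9.45 and 8.84 in wet leaves. Bur-0 was lowest, with 6.72, 7.16 and 6.43 in dry and 6.69, 6.75 and 6.93 in wet leaves, so no array of Bur-0 reached the lowest of Col.

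Single accessions were each set against the mean of the other 9, and 11 of 270 member tests passed, 4.07% against 8.48% over all loci. No member passed in Ws-2, where 5.9% of loci did, or in HR-5, where 9.65% did. TIP2-2 gave 7 of the 11. It was higher in Col by 1.64 ± 0.16 (limma adjusted p = 4.98e-10; 12.4% of loci were called in Col), in SQ-8 by 0.73 ± 0.16 (adjusted p = 0.00231; 7.42%) and in Ts-1 by 0.52 ± 0.16 (adjusted p = 0.0403; 7.75%). It was lower in Bur-0 (-0.92 ± 0.16, adjusted p = 6.55e-05; 13.7%), CIBC-17 (-0.73 ± 0.16, adjusted p = 0.00249; 6.65%), Ler (-0.73 ± 0.16, adjusted p = 0.00152; 12.4%) and NFA-10 (-0.61 ± 0.16, adjusted p = 0.0156; 5.53%). In accession means the order from high to low was Col 9.08, SQ-8 8.27, Ts-1 8.08, KNOX-18 7.79, HR-5 7.65, Ws-2 7.51, NFA-10 7.06, Ler 6.96, CIBC-17 6.96 and Bur-0 6.78. The arrays of SQ-8 all lay below those of Col, and from SQ-8 down the arrays of neighbours in this order overlapped each time. The Ts-1 call was lost without Ts-1 dry 1 (0.40, adjusted p = 0.229), Ts-1 dry 2 (0.56, adjusted p = 0.0512), Ts-1 wet 2 (0.38, adjusted p = 0.263) or Ts-1 wet 3 (0.51, adjusted p = 0.0984). The NFA-10 call was lost without NFA-10 dry 1 (-0.57, adjusted p = 0.0723) or NFA-10 wet 2 (-0.60, adjusted p = 0.0513).

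NIP5-1 (AT4G10380) ranged over 1.11 log2 units among accessions (limma F test, adjusted p = 0.00123). CIBC-17 read 6.98, 6.29 and 5.65 in dry and 7.18, 6.65 and 6.46 in wet leaves, and stood 0.64 ± 0.16 above the other accessions (adjusted p = 0.00899; 6.65%). That call was lost without CIBC-17 dry 1 (0.47, adjusted p = 0.124) or CIBC-17 wet 1 (0.53, adjusted p = 0.072). Col read 5.52, 5.72 and 5.28 in dry and 5.38, 5.28 and 5.39 in wet leaves and differed from the others by -0.59 ± 0.16 (adjusted p = 0.0112). NIP1-1 was higher in KNOX-18 by 0.43 ± 0.08 (adjusted p = 0.00113; 3.28% of loci), the 3 wet arrays being those given above.

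The remaining differences among accessions were small. SIP1-1 ranged from 9.76 in NFA-10 to 9.20 in Col (limma F test, adjusted p = 0.0209) and NIP1-2 from 7.44 in Ts-1 to 6.88 in SQ-8 (adjusted p = 0.0262). TIP5-1, low on the scale, had a range of 0.21 (adjusted p = 0.0307), lost without any 1 of 7 arrays (0.0508 to 0.0616): dry 1 of KNOX-18, NFA-10 or Ws-2, wet 1 of NFA-10, dry 2 of NFA-10, and wet 2 of NFA-10 or Ws-2. TIP4-1 did not pass the F test, yet Ler differed from the others by -0.17 ± 0.06 (adjusted p = 0.0323), a call lost without Ler wet 1 (-0.14, adjusted p = 0.126), Ler dry 2 (-0.14, adjusted p = 0.167), Ler wet 2 (-0.15, adjusted p = 0.109) or Ler dry 3 (-0.17, adjusted p = 0.0616). Without Ler wet 3 the F test called 8 members and the single accession contrasts 16. Besides TIP2-2 and NIP5-1, NIP6-1 had one of the 3 widest ranges of accession means, 1.14 from 8.37 in Ws-2 to 7.23 in HR-5, and did not pass without the block (adjusted p = 0.476).

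**Figure D3:**
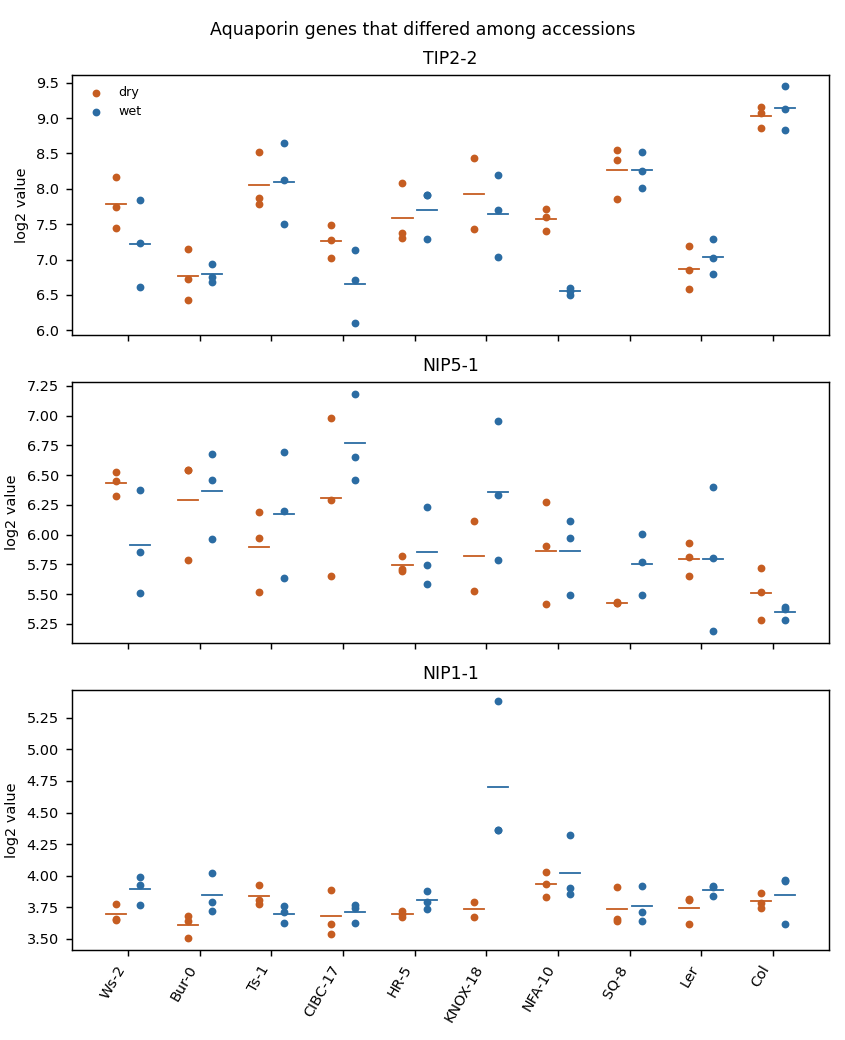
Every array of TIP2-2, NIP5-1 and NIP1-1 (y axes, log2 value) by accession (x axis), dry arrays in orange left of wet arrays in blue, with lines at group means. TIP2-2 is highest in Col, NIP5-1 is highest in CIBC-17, and the wet arrays of KNOX-18 stand above all others for NIP1-1.

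The replicate number, which the labels give for every array, went with larger differences for several members than watering did. Of 27 members 15 differed among the numbers (55.6%, against 30% of all loci; 14 without Ler wet 3), 8 of them higher and 7 lower in number 3 than in number 1. TIP2-1 averaged 11.95 ± 0.42 in dry and 12.04 ± 0.21 in wet arrays of number 3, and 10.57 ± 0.97 in dry and 10.65 ± 0.80 in wet arrays of number 1 (SD, n = 10 accessions each). Adjusted for group, number 3 was higher than number 1 by 1.38 ± 0.20 (limma F test, adjusted p = 5.01e-06). TIP1-2 was higher by 1.20 ± 0.15 (adjusted p = 7.47e-08), PIP1-5 by 0.89 ± 0.14 (adjusted p = 5.75e-06), PIP1-3 by 0.88 ± 0.13 (adjusted p = 5.05e-06) and PIP2-6 by 0.66 ± 0.12 (adjusted p = 7.12e-05).

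In the opposite direction NIP6-1 averaged 6.73 ± 0.72 in dry and 7.26 ± 0.72 in wet arrays of number 3, and 8.11 ± 0.55 in dry and 8.59 ± 0.48 in wet arrays of number 1 (SD, n = 10 each), a difference of -1.35 ± 0.17 (limma F test, adjusted p = 8.76e-08). SIP2-1 differed by -0.76 ± 0.10 (adjusted p = 6.57e-07), PIP1-4 by -0.73 ± 0.09 (adjusted p = 1.33e-08), NIP1-2 by -0.48 ± 0.08 (adjusted p = 2.62e-05), PIP1-2 by -0.31 ± 0.07 (adjusted p = 0.00127) and PIP2-5 by -0.30 ± 0.10 (adjusted p = 0.0189). Smaller positive differences were those of NIP7-1 (0.23 ± 0.06), TIP3-1 (0.21 ± 0.05) and TIP1-3 (0.15 ± 0.04).

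NIP5-1 differed by -0.33 ± 0.11 (limma F test, adjusted p = 0.0374), near the threshold. Centring array medians ended that call (0.0555), as did quantile normalization (0.0541), array quality weights (0.0932) and leaving out any 1 of 18 arrays (0.053 to 0.0794): dry 1 of Bur-0, CIBC-17, KNOX-18 or NFA-10, wet 1 of CIBC-17, KNOX-18, Ler, NFA-10, Ts-1 or Ws-2, dry 3 of CIBC-17, KNOX-18, NFA-10 or Ts-1, and wet 3 of Bur-0, CIBC-17, Ler or NFA-10. TIP1-1, PIP1-1, PIP2-1, SIP1-1 and SIP1-2 did not pass the number test, with differences between numbers 3 and 1 of -0.14 to 0.22.

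**Figure D4:**
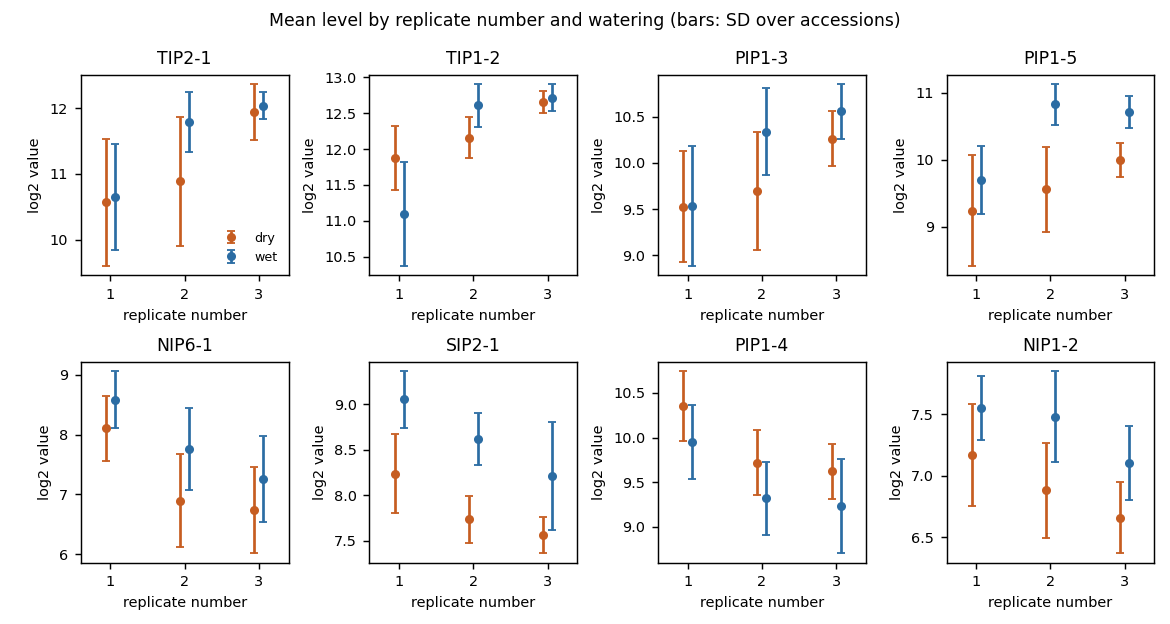
Mean level (y axes, log2 value) of 8 aquaporin genes by replicate number (x axis), dry in orange and wet in blue; bars are SDs over the 9 or 10 accessions. TIP2-1, TIP1-2, PIP1-3 and PIP1-5 are higher in number 3 than in number 1, and NIP6-1, SIP2-1, PIP1-4 and NIP1-2 lower, in both waterings.

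The labels do not say what a replicate number marks. Clock genes, whose transcripts follow the time of day, moved with it: 7 of 7 measured ones differed between numbers. The morning genes LHY and CCA1 differed between numbers 3 and 1 by -3.70 ± 0.12 and -3.39 ± 0.12 (3 minus 1), and GI, PRR5, PRR7, TOC1 and ELF4 were higher by 1.84 ± 0.13, 1.20 ± 0.13, 0.95 ± 0.13, 0.83 ± 0.12 and 0.21 ± 0.04. Between dry and wet leaves 0 of the 7 clock genes passed by limma without the number in the fit, 2 having an unadjusted p under 0.05, with LHY at -0.70 ± 0.49 and GI at 0.48 ± 0.26. With the replicate number as a block 4 of the 7 passed, beside 34.2% of all loci. They were LHY (adjusted p = 2.56e-07), GI (adjusted p = 0.000463), PRR7 (adjusted p = 0.00959) and TOC1 (adjusted p = 0.0104). The part of the time of day in the aquaporin differences was not tested.

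For 6 members the drying difference itself depended on the number (22.2%, against 6.32% of all loci). All 6 had a higher dry minus wet value in number 1 than in numbers 2 and 3. PIP1-1 (AT3G61430), a plasma membrane channel gene, averaged 11.57 ± 0.22 in dry against 11.03 ± 0.20 in wet leaves of number 1 (SD, n = 10 each). In number 2 it averaged 11.25 ± 0.25 in dry (n = 9) against 11.47 ± 0.16 in wet leaves (n = 10), and in number 3 11.22 ± 0.31 against 11.29 ± 0.27 (n = 10 each). The differences were 0.54 ± 0.08, -0.19 ± 0.07 and -0.06 ± 0.11 within numbers 1, 2 and 3 (limma F test of the interaction, adjusted p = 0.00186).

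TIP1-2 (AT3G26520) averaged 11.88 ± 0.44 in dry and 11.10 ± 0.73 in wet leaves of number 1, and 12.16 ± 0.29 in dry and 12.61 ± 0.30 in wet leaves of number 2. Within numbers 1, 2 and 3 it differed by 0.78 ± 0.17, -0.43 ± 0.11 and -0.06 ± 0.04 (limma adjusted p of the interaction = 0.00212). Its rise in number 1 and its fall in number 2 each passed within the number, so the value near 0 over all arrays averages opposite differences. TIP2-2 differed by 0.72 ± 0.17 in number 1 and by -0.10 ± 0.19 and 0.01 ± 0.17 in numbers 2 and 3 (adjusted p = 0.00679). PIP2-1 differed by 0.15 ± 0.10, -0.53 ± 0.14 and -0.34 ± 0.07 (adjusted p = 0.00213).

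PIP2-6 differed by 0.23 ± 0.16, -0.59 ± 0.15 and -0.16 ± 0.10 in numbers 1, 2 and 3 (limma adjusted p = 0.0345) and PIP1-2 by 0.11 ± 0.11, -0.34 ± 0.09 and -0.20 ± 0.07 (adjusted p = 0.0348). Both calls were near the threshold. The PIP2-6 call was lost without any 1 of 14 arrays (0.0511 to 0.0709): dry 1 of HR-5 or SQ-8, wet 1 of Bur-0, KNOX-18, NFA-10 or Ws-2, dry 2 of HR-5, Ler, SQ-8 or Ts-1, and wet 2 of CIBC-17, KNOX-18, NFA-10 or Ts-1. The PIP1-2 call was lost without any 1 of 9 (0.0508 to 0.0786): dry 1 of HR-5, SQ-8 or Ts-1, wet 1 of Bur-0, HR-5, NFA-10 or Ws-2, dry 2 of HR-5, and wet 2 of Ws-2.

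**Figure D5:**
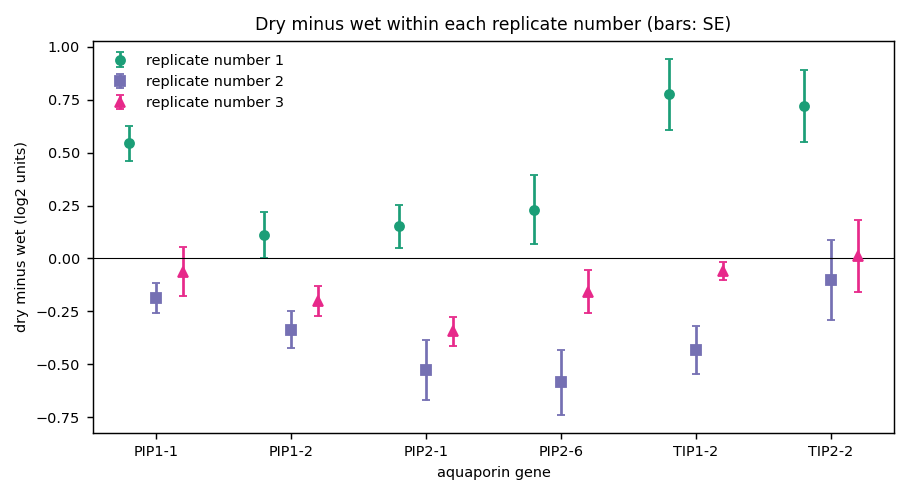
Dry minus wet difference (y axis, log2 units) within each replicate number for the 6 aquaporin genes (x axis) whose difference depended on the number; bars are SEs. Number 1 lies above 0 for all 6 genes and above numbers 2 and 3, which lie at 0.01 or below.

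Taken one number at a time, 9 members were called in number 1 (5 higher and 4 lower, beside 19.4% of all loci), 14 in number 2 (1 higher and 13 lower, beside 17.6%) and 3 in number 3 (0 higher and 3 lower, beside 3.82%). Of the 12 members called over all arrays, 11 had 1 sign in all 3 numbers, the exception being PIP2-1. The 12 were called from these same arrays, so their signs are no independent check. The share of all loci with 1 sign was not counted. TIP1-1 was -0.91 ± 0.27, -1.77 ± 0.27 and -1.09 ± 0.15 and SIP2-1 -0.82 ± 0.12, -0.89 ± 0.10 and -0.66 ± 0.19 in numbers 1, 2 and 3. The clock gene GI had a drying difference that depended on the number too (adjusted p = 0.0348), at -0.02, 0.74 and 0.69.

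Within groups, several members varied together over the 59 arrays. The correlation of deviations from group means was 0.957 between PIP1-3 and TIP2-1, 0.924 between PIP1-5 and PIP2-6, and 0.894 between PIP1-3 and TIP1-2. PIP1-4 and NIP6-1 correlated at 0.831 and NIP6-1 and SIP2-1 at 0.825, while TIP1-2 and SIP2-1 ran opposite at -0.704. These pairs were picked for their large values among all pairs of members, and pairs of other loci were not looked at. The values describe the arrays and share the replicate number, in which the same genes differed. No measured member duplicated the row of another locus, but whether close relatives share probe signal was not tested, so values of such pairs are uncertain. PIP1-3 and PIP1-5 correlated at 0.854, while PIP1-4 ran opposite to PIP1-3 (-0.498) and to PIP1-5 (-0.526).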

How the data were processed

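RNA of 59 rosette leaf samples was hybridised as biotin-labelled cRNA, 1 array per sample, per the labels' protocols. The deposited table holds values on a log2 scale, from 3.07 to 14.06, with 1 row per locus. MAS5 and RMA are named, without versions or roles, per the submitters' processing notes. The sources used here name no platform, probe assignment or genome build, so no coordinates or sequences are printed. Arrays carry no read depth, and their number limits the precision. Whether replicates came from separate pots is given by the labels only as biological replicates.

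Groups came from the sample titles. Models were fitted per locus in R 4.3.3 using limma 3.58.1 with moderated variances (1 mean per group, 39 residual and 1.962 prior degrees of freedom), with no filter. Contrasts were dry minus wet as the mean over accessions and in each accession, F tests among accessions and of watering by accession, each accession against the other 9, and, in a fit with replicate number added, F tests of number and of watering by number. Values within a number came from its arrays alone, with accession as a block. Benjamini-Hochberg adjustment covered the 20728 loci of a contrast together. Sign flips over the 10 accessions used all 1024 patterns, with a smallest p of 0.00195. The fits were tested on simulated data with independent noise in every array and differences planted at chosen loci. Such data cannot show how number differences at 30% of all loci bear on the fit without the number. Every measured member is accounted for; single arrays are given for members past the drying threshold or with the 3 widest accession ranges, and other genes come from companion lists. Members and lists were chosen with earlier results of these data known, and the 5 added leaf markers after the table was seen. Figures were drawn with matplotlib 3.10.9.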

Additional observations from a re-analysis of the deposited data

Results flagged for a closer look

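For 6 aquaporin genes the dry minus wet difference was not the same in the 3 replicate numbers, by limma's F test of the interaction. The adjusted p was 0.00186 for PIP1-1, 0.00212 for TIP1-2, 0.00213 for PIP2-1, 0.00679 for TIP2-2, 0.0345 for PIP2-6 and 0.0348 for PIP1-2. In each of them number 1 had the highest difference, from 0.11 for PIP1-2 to 0.78 for TIP1-2, while in number 2 all 6 were negative, from -0.59 for PIP2-6 to -0.10 for TIP2-2. GI, a clock gene, differed between the numbers by 1.84 ± 0.13 (3 minus 1); its part in these differences was not tested.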

How the results depend on the processing

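Results were recomputed in 80 alternative settings. Of the members called for drying, TIP1-1 passed in all 80; PIP1-4, PIP1-5, SIP1-1, SIP1-2 and SIP2-1 in 79 of 80, each missing with 1 replicate number alone; NIP1-1 in 74 of 79 and NIP6-1 in 59 of 80. PIP2-4, not called as reported, passed in 17 of 80. Within replicate number 1 alone 5 members were higher and 4 lower; within number 2, 1 was higher, and 1 of the regulators and partners was higher and 3 lower; within number 3, 0 members were higher and 3 lower, with 0 and 0 regulators. Of all loci 19.4%, 17.6% and 3.82% were called within numbers 1, 2 and 3, and fewer arrays entered each of these fits. Signs were reversed in 3 cases where the reported or the alternative result was called. These were PIP2-1 within number 1 (0.15), TIP1-2 within number 2 (-0.43) and SYP121 within number 2 (0.0239). Sign changes where neither result was called, such as that of PIP1-1 within number 2 (-0.19), are not listed. With array quality weights, whose estimation stopped before it converged, calls within accessions numbered 27, watering by accession 2, accession means 14 and single accessions against the other 9 28; the cause was not tested. With the replicate block these counts were 9, 0, 13 and 28. Drying then gave 2 higher and 12 lower members, all 12 of the reported calls included. Over all loci the drying calls rose as well, to 34.2% with the block from 29.3% without it. Added to the drying calls of members were PIP1-3 (limma adjusted p = 0.0283) and PIP2-4 (0.0498). For the other counts under the weights or the block the share of all loci was not counted. Same-numbered dry and wet arrays of an accession deviated together (correlation over 0.1) in 24 of 29 pairs (median 0.28, lowest -0.2), and 5 pairs fell short. Values at 30% of all loci also differed between numbers, so arrays of a number shared something that the labels do not name. The block was kept as an alternative, which leaves those differences in the spread of the reported fit. The counts with the block, given above, show what changed. Leaving out each array in turn gave 2 to 3 members higher, 9 to 11 lower, 3 regulators higher and 5 to 7 lower, 2 to 5 calls within accessions, 0 by watering and accession, 5 to 8 among accessions, 10 to 16 against the other 9, 14 to 16 by number and 4 to 7 by watering and number. Members in the lowest 20% of the table (NIP1-1 and TIP3-2) are limited by background. TIP5-1 (mean 4.18), TIP2-3 (4.45) and TIP4-1 (4.61) were also low, within the 3.57 to 5.09 of the root, seed and pollen markers. So was PIP2-5 in wet leaves (4.98).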
